A study of Mus musculus with 16 samples.

Results

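The integrin genes described here are 10 genes in pressure-overloaded mouse hearts, of which 9 encode chains of extracellular matrix receptors and 1 a related secreted protein, namely the beta subunits Itgb1, Itgb3 and Itgb5, the alpha subunits Itgav, Itga1, Itga5, Itga7, Itga8 and Itga11, and the integrin-like gene Itgbl1. They were chosen by symbol, with earlier results of these data known, so the shares of all genes given below are a reference and not a test. Each symbol matched 1 row of the table, so that 10 of the 22372 genes are members. All 10 passed the filter on low values.

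Integrins are surface receptors made of 1 alpha and 1 beta chain, and the pairing decides which matrix protein is bound. Outside the cell they hold collagens, laminins, fibronectin or vitronectin, and inside it they attach through talin and kindlin to the actin skeleton and to kinases such as focal adhesion kinase. In the heart, cardiomyocytes anchor to the laminin of their basement membrane through integrins that hold the beta1 chain, and fibroblasts use integrins to grip matrix and to activate stored transforming growth factor beta.

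RNA was sequenced from ventricle pieces of 16 mice of the strain C57BL/6J, with 4 animals in each of 4 groups. They were 10 to 12 weeks old when the experiment began. Transverse aortic constriction (TAC) loads the left ventricle with pressure by a suture around the aorta, and a sham operation leaves the suture out. THZ1, a covalent inhibitor of the transcription kinases Cdk7, Cdk12 and Cdk13, was given by injection into the abdomen, per the labels in 2 daily doses of 10 mg/kg between postoperative days 1 and 60, and the other mice received vehicle. Sham-Veh mice thus had sham surgery and vehicle, Sham-THZ1 mice sham surgery and THZ1, TAC-Veh mice constriction and vehicle, and TAC-THZ1 mice constriction and THZ1. No group carried a transgene or an engineered allele. The inhibitor reached the whole animal and each library holds all cell types of a tissue piece, so in every result that follows fewer cells of a type and less RNA per cell cannot be told apart.

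The values are normalized counts, which are reads per gene divided by a size factor of the library. The reads recovered from them came to 21.4 to 35.8 M (mega) per library, and mitochondrial genes took 33.2% to 44.7%. All 8 cardiomyocyte markers were present, with a summed normalized count of 777335 or more in every library. Of them, 4 were lower with TAC under vehicle and 6 were higher with THZ1 in TAC, with sums of 1446090.2 to 1547830.2 in Sham-Veh, 777335 to 1143693 in TAC-Veh and 1279058 to 1589683 in TAC-THZ1. Markers are counted as higher or lower at an adjusted p under 0.05 in limma. Over all genes, 21.4% were called higher and 23.6% lower with TAC under vehicle, and 14.2% lower and 15.1% higher with THZ1 in TAC. Other marker lists moved too. Of 7 fibroblast markers, 5 were higher with TAC under vehicle and 4 were lower with THZ1 in TAC, and their summed count ranged from 21994 to 23973 in Sham-Veh, 42493 to 56665 in TAC-Veh and 25620 to 38025 in TAC-THZ1. Of 6 markers of activated fibroblasts, which include the periostin gene Postn, 6 and 5 moved in these directions. Their sum ranged from 1841 to 2498, 22789 to 75122 and 2805 to 7202 in the same groups. The most abundant gene weighs most in each sum. The Sham-Veh and TAC-Veh means were 1348 and 38153 for Postn, and 14328 and 30278 for the fibroblast marker Dcn. They were 141 and 184 for Fap, of the activated list, and 1203 and 1441 for the fibroblast marker Pdgfra. Of 6 macrophage markers, 4 were higher with TAC and none was lower with THZ1 in TAC. Their sum ranged from 5082 to 6229.9 in Sham-Veh, 7704 to 9889 in TAC-Veh and 5394 to 10410 in TAC-THZ1. The 4 neutrophil markers, 2 of them higher with THZ1 in TAC, ranged from 121 to 276 in TAC-Veh and from 204 to 7029.6 in TAC-THZ1. No marker of these 5 lists was at 0 in any group, and the part of these cell types, cardiomyocytes included, in the changes of the integrin genes was not tested.

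On a scale of mean normalized count per kilobase of exon, which allows genes to be compared, Itgb1 stood first in every group, with 2704 ± 44.4 (SD, n = 4) in Sham-Veh and 3309 ± 462 in TAC-Veh. It encodes the beta1 chain, the common partner of most matrix-binding alpha chains. Itga7 ranked next in Sham-Veh with 934 ± 34.7, followed by Itgb5 with 710 ± 27.6 and Itga5 with 336 ± 38.4. No library of these 4 genes overlapped the next in the order. Itga1, Itgav and Itgbl1 lay close together in Sham-Veh at 80.2 ± 8.1, 73.7 ± 5.2 and 71.0 ± 13.9, and each overlapped its neighbour. Itga11 at 20.9 ± 4.6, Itga8 at 17.0 ± 0.26 and Itgb3 at 8.67 ± 1.23 closed the list. In TAC-Veh the order changed. Itgb5 ranked next to Itgb1 at 1400.2 ± 278 per kilobase, with every library above those of Itga7 at 761 ± 94.7. Itgbl1 had rank 4 at 602 ± 214 and overlapped both Itga7 and Itga5. In TAC-THZ1, Itgb5 at 811 ± 110 and Itga7 at 741 ± 72.8 overlapped, and Itgbl1 had rank 5 at 149 ± 42.2.

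The stretches upstream of 5 members are shown because their response to THZ1 differed between surgeries, as described further on. RefSeq on GRCm38.p6 held promoters for 8 of the 10 members (not Itga7 or Itgb3), and the 250 bases before the start of transcription are printed in the direction of the gene. Itgbl1 lies at chr14:123659890-123660139 on the plus strand, Itga11 at chr9:62677605-62677854 on the plus strand, Itgb5 at chr16:33829415-33829664 on the plus strand, Itgb1 at chr8:128685404-128685653 on the plus strand and Itga5 at chr15:103366792-103367041 on the minus strand. Capitals mark matches, on either strand, to 5 motifs, which were the GC box GGGCGG, the MCAT element CATTCC bound by TEAD factors, the AP-1 site TGANTCA, the TATA box TATAAA and the CArG box of serum response factor.
Itgbl1: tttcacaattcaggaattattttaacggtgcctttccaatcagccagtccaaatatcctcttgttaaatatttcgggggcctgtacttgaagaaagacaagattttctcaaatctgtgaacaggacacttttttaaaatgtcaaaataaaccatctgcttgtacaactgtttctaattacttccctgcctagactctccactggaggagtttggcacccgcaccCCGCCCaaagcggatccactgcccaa
Itga11: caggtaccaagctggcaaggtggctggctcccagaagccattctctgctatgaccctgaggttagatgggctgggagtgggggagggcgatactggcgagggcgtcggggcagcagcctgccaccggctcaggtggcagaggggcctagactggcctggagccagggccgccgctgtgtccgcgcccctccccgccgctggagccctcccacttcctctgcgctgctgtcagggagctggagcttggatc
Itgb5: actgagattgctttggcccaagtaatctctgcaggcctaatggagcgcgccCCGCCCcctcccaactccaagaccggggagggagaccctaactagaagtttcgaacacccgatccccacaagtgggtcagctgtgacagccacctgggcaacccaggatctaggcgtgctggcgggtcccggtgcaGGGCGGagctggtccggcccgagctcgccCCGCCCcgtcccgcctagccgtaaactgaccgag
Itgb1: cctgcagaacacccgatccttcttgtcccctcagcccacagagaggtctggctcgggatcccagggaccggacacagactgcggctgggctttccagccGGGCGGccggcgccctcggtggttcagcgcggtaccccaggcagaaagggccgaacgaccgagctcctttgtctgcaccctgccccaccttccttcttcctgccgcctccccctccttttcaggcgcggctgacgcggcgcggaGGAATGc
Itga5: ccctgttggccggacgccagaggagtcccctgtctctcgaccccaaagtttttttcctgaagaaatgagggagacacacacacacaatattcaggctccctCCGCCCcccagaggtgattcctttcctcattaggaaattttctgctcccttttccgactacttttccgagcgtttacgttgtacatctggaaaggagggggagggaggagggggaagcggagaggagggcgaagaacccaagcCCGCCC
A GC box was found in 4 of the 8 members with a promoter, with 3 matches in Itgb5, 2 in Itga5 and 1 each in Itgb1 and Itgbl1, against 32.7% of the 32851 promoters of the table. The MCAT element was found in Itgb1 alone of the 8 members with a promoter, 7 to 2 bases before the start, and 12.6% of all promoters held it. None of the 8 held the AP-1 site, the TATA box or the CArG box, which 6.75%, 12.4% and 1.47% of all promoters held. The window of Itgbl1 had a GC content of 42.4% and that of Itga11 68.4%, beside a median of 52.4% over all promoters. No printed match overlapped another, and these are matches of letters in a window and not shown binding sites.

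**Figure D1:**
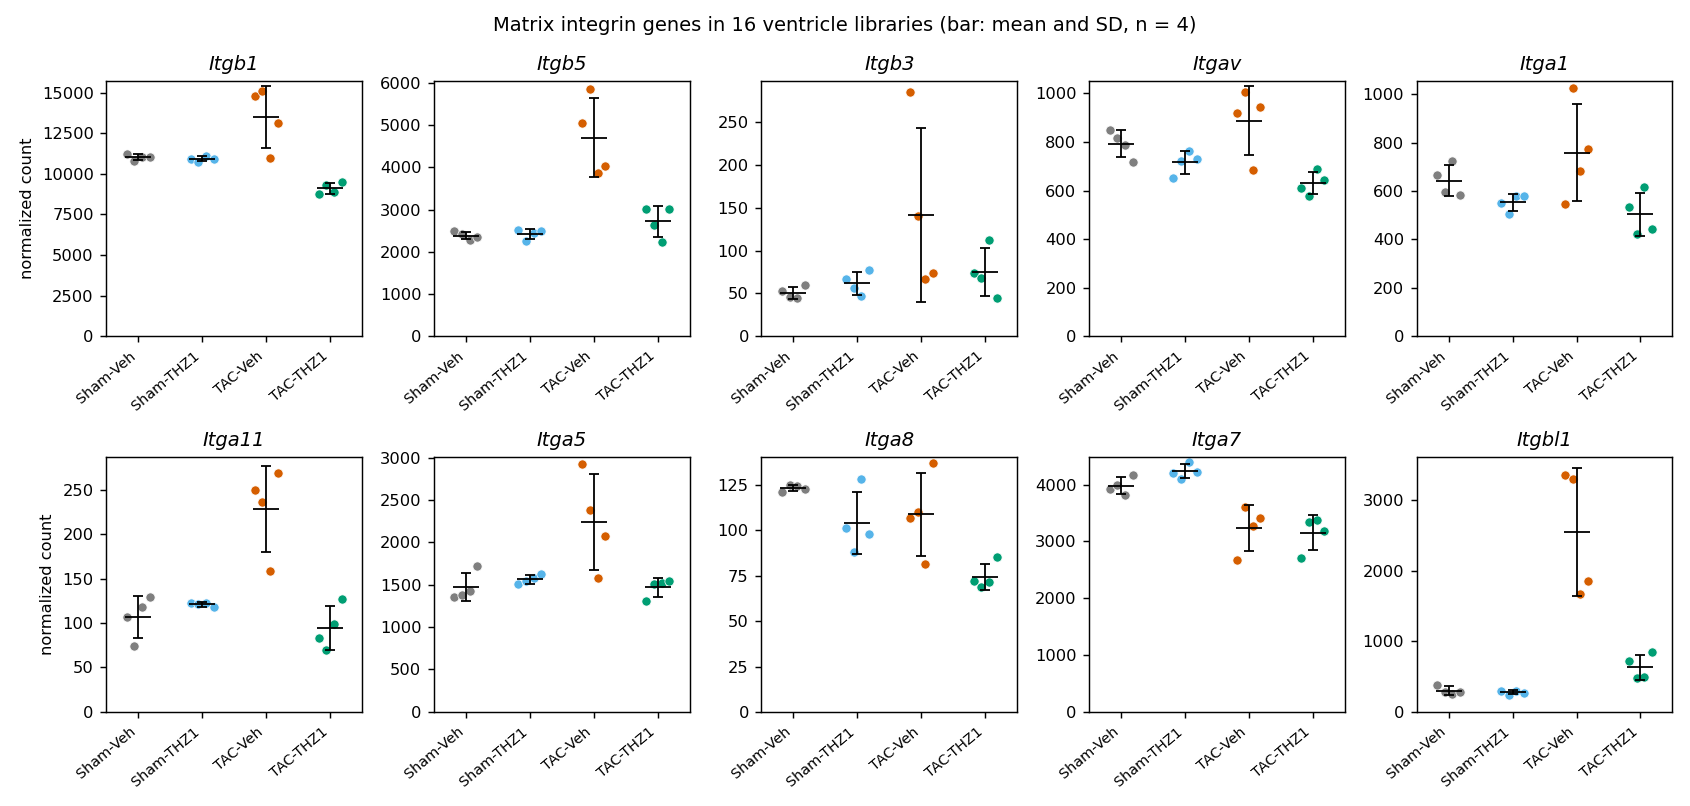
Normalized count (vertical axis, linear, from 0) of each of the 10 genes in each library, by group; points are libraries and bars the mean and SD of 4. Itgbl1 lies between 257 and 387 in Sham-Veh and between 1670.3 and 3349.6 in TAC-Veh, and Itgb1 in TAC-THZ1 lies below every library of the other groups.

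The first comparison asked how pressure overload changed these genes under vehicle. In TAC-Veh against Sham-Veh 6 members rose, 1 fell and 3 did not pass an adjusted p of 0.05 in limma. Over all 13331 genes tested, 21.4% were called higher and 23.6% lower. The median log2 change of the members was 0.43 and that of all genes was -0.00. With a log2 change of at least 1 also required, 3 members were higher (Itgbl1, Itgb3 and Itga11), against 4.64% of all genes. For 5 members (Itgbl1, Itgb3, Itga11, Itgb5 and Itga7) the libraries of the groups did not overlap, which held for 37.3% of all genes.

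Itgbl1 changed by the largest log2 value of the 10. It encodes a secreted protein built of the cysteine-rich repeats of a beta subunit, without a membrane anchor or a ligand-binding head, and so is not a receptor chain. The gene spans chr14:124059193-124374840 on the plus strand of mm9. Its normalized counts were 387, 281, 257 and 276 in Sham-Veh and 3349.6, 3303, 1670.3 and 1859 in TAC-Veh. The groups were far apart, and within TAC-Veh replicates 1 and 2 lay well above replicates 3 and 4. The means were 300.2 ± 58.8 and 2545 ± 905 (SD, n = 4), a log2 change of 3.03 (SE 0.23, adjusted p = 1.24e-07, limma).

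The beta subunits Itgb5, Itgb1 and Itgb3 rose as well. The product of Itgb5 pairs with the alpha v chain into a vitronectin receptor that can also activate latent transforming growth factor beta. Counts were 2495, 2425, 2283 and 2344 in Sham-Veh and 5059, 5868, 3872 and 4032 in TAC-Veh (chr16:33829751-33949239, plus strand). Every TAC-Veh library was above every Sham-Veh library, and the log2 change was 0.96 (SE 0.11, adjusted p = 8.39e-06). Itgb1 (chr8:131209554-131257100, plus strand) had 11252, 10808, 11041 and 11041 in Sham-Veh and 14782, 15098, 10981 and 13150.0 in TAC-Veh. Replicate 3 of TAC-Veh lay within the sham range while the other 3 lay above it. The log2 change was 0.28 (SE 0.08, adjusted p = 0.00913), and it lost its call when only the groups compared were fitted (adjusted p = 0.0595).

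Itgb3, the beta3 chain of platelets, endothelium and other cells, which pairs with alpha v, was the scarcest of the 3 beta subunits described here (chr11:104469370-104531790, plus strand). It had 53.0, 45.7, 44.2 and 59.7 normalized counts in Sham-Veh and 286, 141, 66.4 and 74.1 in TAC-Veh. The groups did not overlap, but replicates 3 and 4 of TAC-Veh lay just above the highest sham library and replicate 1 far above it. Its log2 change of 1.22 had the largest SE of the members, 0.36 (adjusted p = 0.0113). The 5 platelet markers, which include the alpha partner Itga2b, had a summed count of 229 to 317 in Sham-Veh, 334 to 434 in TAC-Veh and 391 to 640 in TAC-THZ1. Itgb3 itself ranged from 44.5 to 112 in TAC-THZ1. The sum of 6 endothelial markers ranged from 19110 to 21157, 16746 to 21708 and 15759 to 17101 in the same groups. The part of either list in the change of Itgb3 was not tested.

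Of the alpha subunits, Itga11 and Itga5 rose and Itga7 fell. Itga11 encodes a collagen receptor chain of fibroblasts (chr9:62525633-62631789, plus strand). It had 107, 74.6, 118 and 129.8 in Sham-Veh and 249, 237, 159 and 269 in TAC-Veh. All TAC-Veh libraries were above all Sham-Veh libraries, with a log2 change of 1.08 (SE 0.19, adjusted p = 3.2e-04). Itga5 encodes the alpha chain of the classical fibronectin receptor (chr15:103174720-103197194, minus strand). Its counts were 1356, 1384, 1425 and 1719.9 in Sham-Veh and 2929, 2377, 1574 and 2071 in TAC-Veh. Replicate 3 of TAC-Veh again lay inside the sham range, and the log2 change was 0.58 (SE 0.13, adjusted p = 0.00241).

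Itga7, the main laminin-binding alpha chain of heart and skeletal muscle cells, was the member that fell (chr10:128370869-128395333, plus strand). It had 3930.2, 3989, 3821 and 4174 in Sham-Veh and 2671, 3604, 3273 and 3413 in TAC-Veh. Every TAC-Veh library was below every Sham-Veh library. The means were 3979 ± 148 and 3241 ± 403 (SD, n = 4), a log2 change of -0.30 (SE 0.08, adjusted p = 0.00817). In the same comparison 4 of 8 cardiomyocyte markers were lower and none was higher, with a summed count of 777335 to 1143693 in TAC-Veh against 1446090.2 to 1547830.2 in Sham-Veh. With THZ1 in TAC 6 of the 8 markers were higher and none was lower, while Itga7 was at -0.03 and not called. Between TAC-THZ1 and Sham-THZ1, 2 markers were lower and 6 were not called, while Itga7 was lower at -0.43. Single markers differed. The mean of Myh6 was 501105 in Sham-Veh and 225634 in TAC-Veh, and that of Actc1 209073 and 208600. Of 7 markers of mural cells, which are pericytes and smooth muscle, 3 were lower and 1 was higher with TAC under vehicle. With THZ1 in TAC 2 of them were lower and 1 was higher, at a median log2 change of -0.13. Between TAC-THZ1 and Sham-THZ1, 4 were lower and 0 higher, at a median of -0.43. Whether the markers of either list bear on Itga7 was not tested.

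The other 3 alpha chains did not pass the test with TAC. Itga1, a chain of a collagen and laminin receptor (chr13:115748287-115892172, minus strand), had 665, 598, 722 and 582 in Sham-Veh and 548, 1024, 685 and 772 in TAC-Veh (log2 change 0.21, SE 0.15, adjusted p = 0.287). Itgav, the alpha v chain that beta3 and beta5 share (chr2:83564554-83647073, plus strand), had 849, 815, 787 and 718 in Sham-Veh and 919, 1005, 684 and 943 in TAC-Veh (0.15, SE 0.10, adjusted p = 0.237). For both genes the groups overlapped. Single libraries decided these calls. Without replicate 1 of TAC-Veh, Itga1 was called at 0.35 (adjusted p = 0.0493), and without replicate 2 it was at 0.049 (adjusted p = 0.799). Without replicate 3, Itgav was called at 0.27 (adjusted p = 0.00975), and without replicate 2 it was at 0.087 (adjusted p = 0.534). Itga8, the chain of a receptor for nephronectin and other proteins with an RGD motif (chr2:12028259-12223547, minus strand), had 121, 125, 125 and 123 in Sham-Veh and 107, 110.1, 81.2 and 137 in TAC-Veh (-0.20, SE 0.14, adjusted p = 0.266). With 54 to 161 reads per library it is, beside Itgb3 and Itga11, among the least deeply counted members.

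Replicate 3 of TAC-Veh was the lowest of its group for 8 of the 10 members and replicate 2 the highest for 5. Such ranks were not counted over all genes, so they are not shown to be particular to the members. Mitochondrial genes took 37.7%, 33.2%, 42.3% and 34.5% of the reads in TAC-Veh replicates 1 to 4. In TAC-THZ1, replicate 2 was the lowest for 5 members at 44.7%. Replicates 3 and 4 of TAC-THZ1 were the highest for 4 and 5, at 36.7% and 43.1%. Whether the mitochondrial share bears on the order of the libraries was not tested. The spread of the members in TAC-Veh was wide. For Itgb1 the SD of the log2 values was 0.21 in TAC-Veh and 0.02 in Sham-Veh.

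The second comparison asked what THZ1 did to these genes under pressure overload, and 8 of the 10 were lower in TAC-THZ1 than in TAC-Veh, none was higher and 2 did not pass the test. Of all genes, 14.2% were called lower and 15.1% higher. For 5 members the libraries of the groups did not overlap, which held for 20.0% of all genes. The median log2 change was -0.57 over the members and 0.01 over all genes. With a log2 change of -0.89 or less also required, the threshold of the study for THZ1, 2 members were lower (Itgbl1 and Itga11), against 3.62% of all genes. This comparison and the first share the TAC-Veh libraries, so a library that is high in TAC-Veh moves both values apart.

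In TAC-THZ1, Itgbl1 had 719, 476, 491 and 841 normalized counts. All were below the lowest TAC-Veh library at 1670.3 and above the highest Sham-Veh library at 387. The log2 change from TAC-Veh was -1.98 (SE 0.23, adjusted p = 5.19e-05). Itga11 had 83.0, 70.02, 98.5 and 127, all under the TAC-Veh libraries and within or below the sham range, with a log2 change of -1.27 (SE 0.19, adjusted p = 3.04e-04). Itgb5 had 3018, 2635, 2244 and 3013, again without overlap, with -0.78 (SE 0.11, adjusted p = 2.5e-04).

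Itgb1 had 8761, 9308, 8889 and 9492 in TAC-THZ1. The highest of these was under the lowest library of every other group, 10757, and the log2 change was -0.56 (SE 0.08, adjusted p = 1.98e-04). Itga5 had 1304, 1503, 1516 and 1546, all below the lowest TAC-Veh library at 1574. Its log2 change was -0.58 (SE 0.13, adjusted p = 0.00473). Libraries of the 2 groups overlapped for the other 3 called genes. Itgav had 612, 579, 690.0 and 643 and fell by 0.48 (SE 0.10, adjusted p = 0.00265). Itga1 had 535, 423, 615 and 444 and fell by 0.56 (SE 0.15, adjusted p = 0.0110). Itga8 had 72.1, 68.7, 71.6 and 85.1 and fell by 0.52 (SE 0.14, adjusted p = 0.0122). When only TAC-Veh and TAC-THZ1 were fitted, the calls of Itga1, Itga5 and Itga8 were lost (adjusted p = 0.0791, 0.0514 and 0.0754).

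Itga7 and Itgb3 did not pass the test under THZ1. Itga7 had 2707, 3349, 3376 and 3193, spread over the same range as in TAC-Veh, and its log2 change was -0.03 (SE 0.08, adjusted p = 0.793). Itgb3 had 74.3, 67.5, 112 and 44.5, inside or below the TAC-Veh range, with -0.74 (SE 0.36, adjusted p = 0.134). Its call depended on 1 library and on the tool, since it was lower by 1.01 without replicate 3 of TAC-Veh (adjusted p = 0.0378, limma) and by 0.92 in DESeq2 (adjusted p = 0.0463). It was not called without replicate 1 of TAC-Veh, at -0.32 (adjusted p = 0.419, limma), in edgeR (adjusted p = 0.0793) or in DESeq2 without a filter on low counts (adjusted p = 0.0504).

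**Figure D2:**
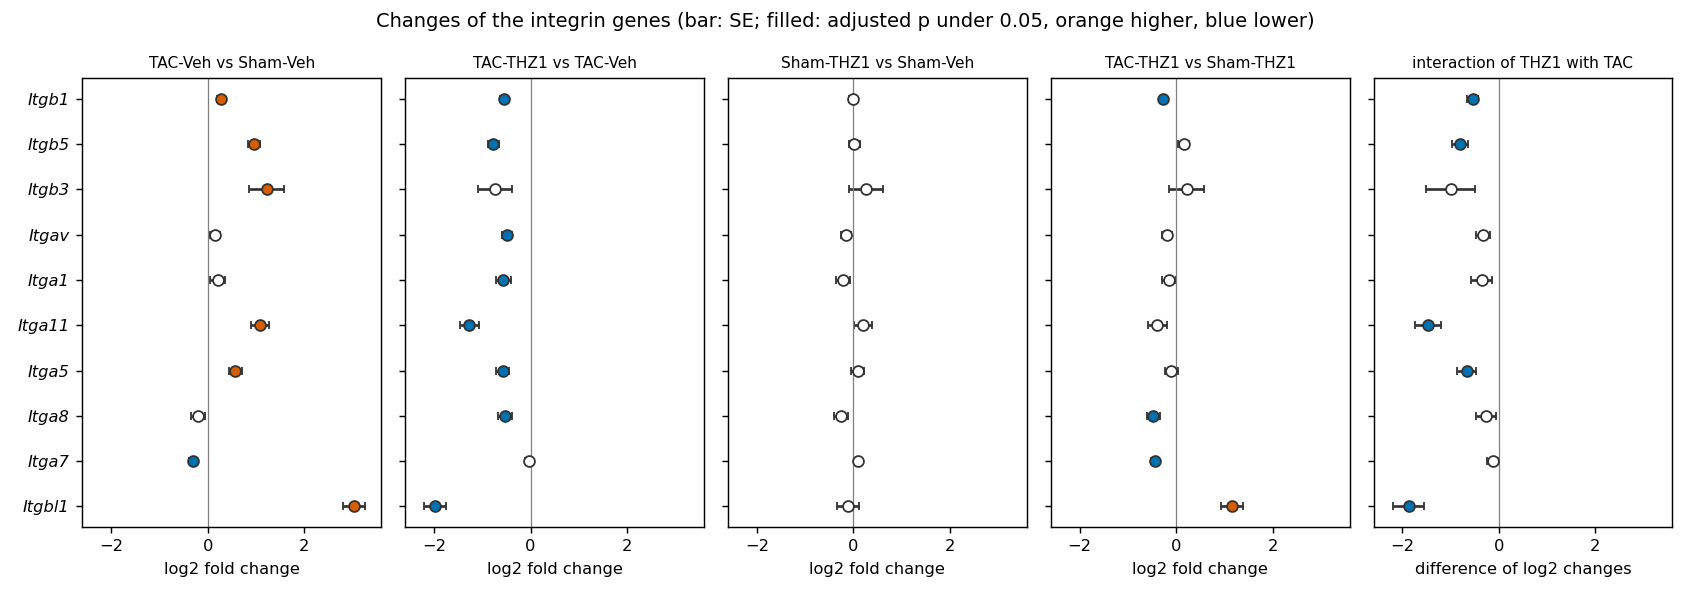
Log2 fold change of each gene (horizontal axis, log2 scale) in the 4 pairwise comparisons and, in the last panel, the interaction; bars are the SE and filled points have an adjusted p under 0.05 in limma, orange for higher and blue for lower. With TAC under vehicle 6 genes are higher and 1 is lower, with THZ1 in TAC 8 are lower, and in sham hearts no point is filled.

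In sham hearts limma, edgeR and DESeq2 called none of the 10 genes between Sham-THZ1 and Sham-Veh at an adjusted p of 0.05. In limma 0 of the 10 had an unadjusted p under 0.05, beside 917 of all 13331 genes. Of all genes, 0.0675% were called in either direction. This share depended on the fit. When only the sham groups were fitted, 287 genes were higher and 178 lower, beside 3 and 6 in the main fit. With array weights 254 were higher and 259 lower. No member was called in either of these fits. The log2 changes of the members ran from -0.26 for Itga8 to 0.26 for Itgb3. Itgb1 was nearly equal, at 10932 ± 149.9 against 11035 ± 181 (SD, n = 4), and Itgbl1 had 296, 235, 299 and 273 in Sham-THZ1. The libraries of Itga1 did not overlap, as for 11.3% of all genes, with 549.9, 505, 578 and 580.5 in Sham-THZ1, all under the lowest Sham-Veh library, and a log2 change of -0.21 (SE 0.15, adjusted p = 0.850).

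The interaction, which is the THZ1 effect in TAC minus that in sham, was negative and called for 5 of the 10 genes, against 5.62% of all genes called negative. These were Itgbl1 at -1.87 (SE 0.32, adjusted p = 0.00370), Itga11 at -1.47 (SE 0.28, adjusted p = 0.00547), Itgb5 at -0.80 (SE 0.16, adjusted p = 0.00830), Itga5 at -0.67 (SE 0.19, adjusted p = 0.0355) and Itgb1 at -0.54 (SE 0.11, adjusted p = 0.00907). The call of Itga5 was lost without any 1 of 10 libraries, namely Sham-Veh replicates 1 to 3, each Sham-THZ1 replicate, TAC-Veh replicate 2, and TAC-THZ1 replicates 1 and 2, at an adjusted p of 0.0578 to 0.0738. Itgav was at -0.34 (SE 0.14, adjusted p = 0.142) and was called at -0.46 without replicate 3 of TAC-Veh (adjusted p = 0.00847). Itgb3 was at -1.003 with an SE of 0.51 (adjusted p = 0.217), and Itga1, Itga7 and Itga8 ran from -0.35 to -0.13 without a call.

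Between TAC-THZ1 and Sham-THZ1, which asks what the constriction did under the drug, 1 member was higher and 3 were lower. Of all genes, 11.4% were called higher and 12.8% lower, and for 33.4% the libraries of the groups did not overlap. Itgbl1 remained higher by 1.16 (SE 0.23, adjusted p = 0.00280), with no overlap. Itga7 was lower by a log2 change of -0.43 (SE 0.08, adjusted p = 0.00302), with every TAC-THZ1 library under every Sham-THZ1 library. Itga8 was lower at -0.47 (SE 0.14, adjusted p = 0.0267) and Itgb1 at -0.26 (SE 0.08, adjusted p = 0.0254), also without overlap. Itgb5 and Itga11, called with TAC under vehicle, were at 0.16 (SE 0.11, adjusted p = 0.326) and -0.39 (SE 0.19, adjusted p = 0.156). The calls of Itga8 and Itgb1 were lost when either of Sham-THZ1 replicates 1 and 3 or TAC-THZ1 replicates 1 and 3 was left out. Itga8 then also lost its call without TAC-THZ1 replicate 2 (adjusted p = 0.0525 to 0.0910 over these 5) and Itgb1 without Sham-THZ1 replicate 4 (0.0543 to 0.0699).

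Alpha and beta chains act as pairs, so the make-up of each pool was followed as a share of the summed normalized count per kilobase. Of 12 alpha chains of matrix receptors, Itga7 took 50.3%, 51.7%, 49.7% and 50.9% in the Sham-Veh libraries and 31.1%, 36.5%, 42.5% and 36.3% in TAC-Veh. In TAC-THZ1 it took 44.9%, 50.1%, 46.5% and 45.3%, above every TAC-Veh library. In Sham-THZ1 it took 53.4%, 53.2%, 53.8% and 52.6%, above every Sham-Veh library. The group mean was 50.7% ± 0.86 (SD, n = 4) for Sham-Veh, 53.3% ± 0.48 for Sham-THZ1, 36.6% ± 4.7 for TAC-Veh and 46.7% ± 2.4 for TAC-THZ1. In the exact two-sided permutation test each of the 4 pairwise comparisons reached p = 0.0286, the smallest that 4 against 4 allow, and 0.0381 after adjustment over 8 such tests. With THZ1 the share was higher by 10.1 percentage points in TAC and by 2.59 in sham hearts. The count of Itga7 itself was 3241 ± 403 in TAC-Veh and 3156 ± 310.2 in TAC-THZ1, while Itga5 and Itga9 were called lower in TAC-THZ1. Itga5 took 18.2% ± 1.6 in Sham-Veh, 24.4% ± 6.0 in TAC-Veh and 21.1% ± 0.65 in TAC-THZ1, and Itga9 9.39% ± 0.64, 18.1% ± 1.5 and 12.7% ± 1.6.

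Of the 5 beta chains that can pair with alpha v, Itgb1 took 77.3% ± 0.65 in Sham-Veh and 69.3% ± 1.9 in TAC-Veh (SD, n = 4). The libraries did not overlap, and the exact permutation test gave p = 0.0286. In TAC-THZ1 its share was 71.7% ± 2.3, which overlapped TAC-Veh, with a difference of 2.40 percentage points (p = 0.171, exact permutation test), and in Sham-THZ1 it was 76.9% ± 0.72 (p = 0.371 against Sham-Veh, same test). Under THZ1 the share was 5.16 points lower with TAC than with sham (p = 0.0286, exact permutation test). Itgb5 took 20.3% ± 0.61 in Sham-Veh, 29.2% ± 2.0 in TAC-Veh and 25.98% ± 2.7 in TAC-THZ1. Itgb3 stayed under 1% in every library. Itgb1 lost share with TAC while its own count rose.

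**Figure D3:**
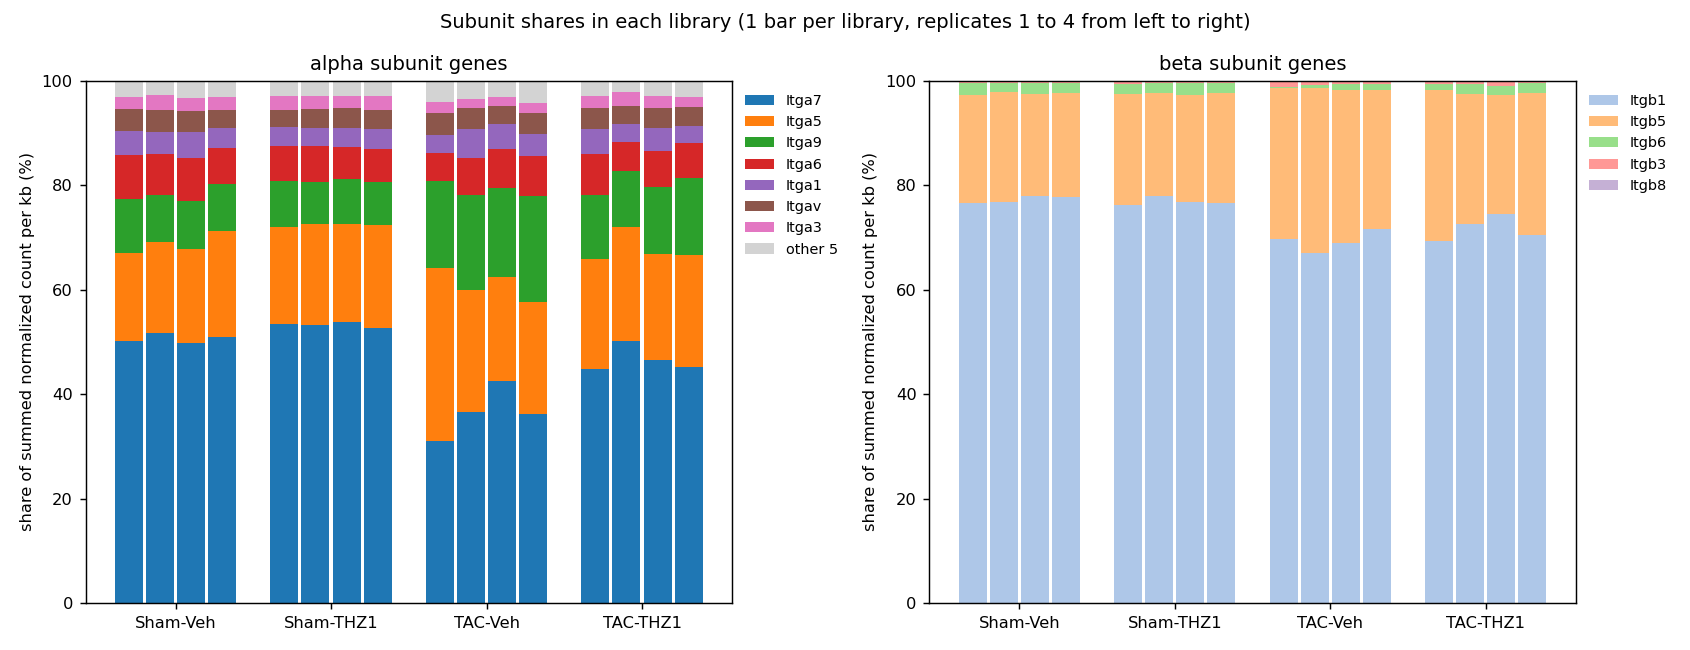
Share (vertical axis, percent) of each subunit gene in the summed normalized count per kilobase of exon, for 12 alpha chains on the left and 5 beta chains on the right; each bar is 1 library and the 4 bars of a group are its replicates. The Itga7 share is about 50.7% in Sham-Veh and 36.6% in TAC-Veh, and the Itgb5 share 20.3% and 29.2%.

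By the rule for likeness, the genes whose group means followed Itgbl1 most closely were Mfap5, Sfrp2 and Nkd2. The measure was the root mean square difference of the 3 group means in log2, each taken from the Sham-Veh mean, which was 0.12, 0.14 and 0.14. Mfap5 rose by 3.09 in TAC-Veh and stood 0.96 above Sham-Veh in TAC-THZ1, beside 3.03 and 1.05 for Itgbl1. For Itgb3 the nearest were Tiam2, Tsku and Emilin1, at 0.06, 0.07 and 0.08. For Itga7 they were Agrn, Arid1b and Crtc3, at 0.01, 0.02 and 0.03. Agrn encodes agrin, a heparan sulfate proteoglycan of basement membranes, and stood at -0.31 in TAC-Veh and -0.32 in TAC-THZ1 relative to Sham-Veh, beside -0.30 and -0.34 for Itga7. These are distances over 4 group means of 4 libraries each, chosen as the smallest among genes whose mean reached 100 normalized counts.

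Of the 18 other integrin subunits, 14 passed the filter, and with TAC 3 were higher, 2 were lower and 9 were not called, beside 21.4% higher and 23.6% lower over all genes. Itgb8, a partner of alpha v that activates latent transforming growth factor beta, rose by 1.33 (SE 0.23, adjusted p = 2.04e-04) and was lower under THZ1 in TAC, at -0.92 (SE 0.23, adjusted p = 0.00637). Itga9, the partner of beta1 for tenascin and osteopontin, rose by 1.12 (SE 0.12, adjusted p = 3.34e-06) and was lower under THZ1, at -0.91 (SE 0.12, adjusted p = 1.13e-04). Itgb6, another partner of alpha v, was at -1.23 with TAC (SE 0.37, adjusted p = 0.0119). Under THZ1 in TAC 3 of the 14 were lower and none was higher, beside 14.2% and 15.1% of all genes, and the third was the laminin receptor chain Itga6 at -0.42 (SE 0.12, adjusted p = 0.0144). The median log2 change was 0.02 with TAC and -0.16 with THZ1 in TAC, beside -0.00 and 0.01 over all genes.

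The ligands were 27 matrix and matricellular genes, all of which passed the filter. With TAC 16 rose, 5 fell and 6 were not called, and under THZ1 in TAC 20 were lower, 2 were higher and 5 were not called. Over all genes 21.4% were higher and 23.6% lower with TAC, and 14.2% were lower and 15.1% higher with THZ1 in TAC. The medians were 0.44 and -1.14, beside -0.00 and 0.01 over all genes. The largest values were those of Postn, periostin, which binds alpha v integrins, with 4.65 (SE 0.34, adjusted p = 1.24e-07) and then -3.15 (SE 0.34, adjusted p = 3.97e-05). Spp1, osteopontin, was at 4.11 (SE 0.52, adjusted p = 1.48e-05) and -2.91 (SE 0.52, adjusted p = 9.46e-04). Ctgf, connective tissue growth factor, rose by 2.97 with TAC (SE 0.34, adjusted p = 5.94e-06), and Thbs1, thrombospondin 1, was at -2.65 under THZ1 (SE 0.38, adjusted p = 1.98e-04). Vtn, the vitronectin gene and ligand of alpha v beta5 and alpha v beta3, went the other way, at -0.50 with TAC (SE 0.09, adjusted p = 4.54e-04) and 0.58 with THZ1 in TAC (SE 0.09, adjusted p = 5.02e-04). Lama2, the laminin chain of the muscle basement membrane, was at 0.07 with TAC (SE 0.08, adjusted p = 0.506) and -0.51 with THZ1 in TAC (SE 0.08, adjusted p = 5.05e-04). Vtn and Lama2 were named after their values were seen.

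The adhesion list held 25 genes of proteins that bind integrin tails or anchor them, of which 24 were tested. With TAC 8 rose, 2 fell and 14 were not called, and under THZ1 in TAC 10 were lower, 1 was higher and 13 were not called, beside the same shares of all genes (21.4%, 23.6%, 14.2% and 15.1% in this order). Nmrk2, a nicotinamide riboside kinase also known as a muscle binding protein of beta1 integrin, rose by 4.99 (SE 0.65, adjusted p = 1.95e-05) and was at -2.34 under THZ1 (SE 0.65, adjusted p = 0.0136). Actn1, an actin cross-linker of adhesions, was at 0.80 (SE 0.17, adjusted p = 0.00104) and -0.94 (SE 0.17, adjusted p = 8.5e-04). Parvg, a parvin of blood cells, rose by 0.94 (SE 0.33, adjusted p = 0.0303). It was scarce, at 11.2 to 20.7 normalized counts in Sham-Veh and 21.8 to 56.4 in TAC-Veh. Flnc, the filamin of striated muscle, was at -0.65 under THZ1 (SE 0.13, adjusted p = 0.00158). The gene higher under THZ1 was Itgb1bp2, named after its value was seen, which encodes melusin, a muscle protein that binds the beta1 tail, at 0.40 (SE 0.12, adjusted p = 0.0183). The medians were 0.13 with TAC and -0.20 with THZ1 in TAC, beside -0.00 and 0.01 over all genes.

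**Figure D4:**
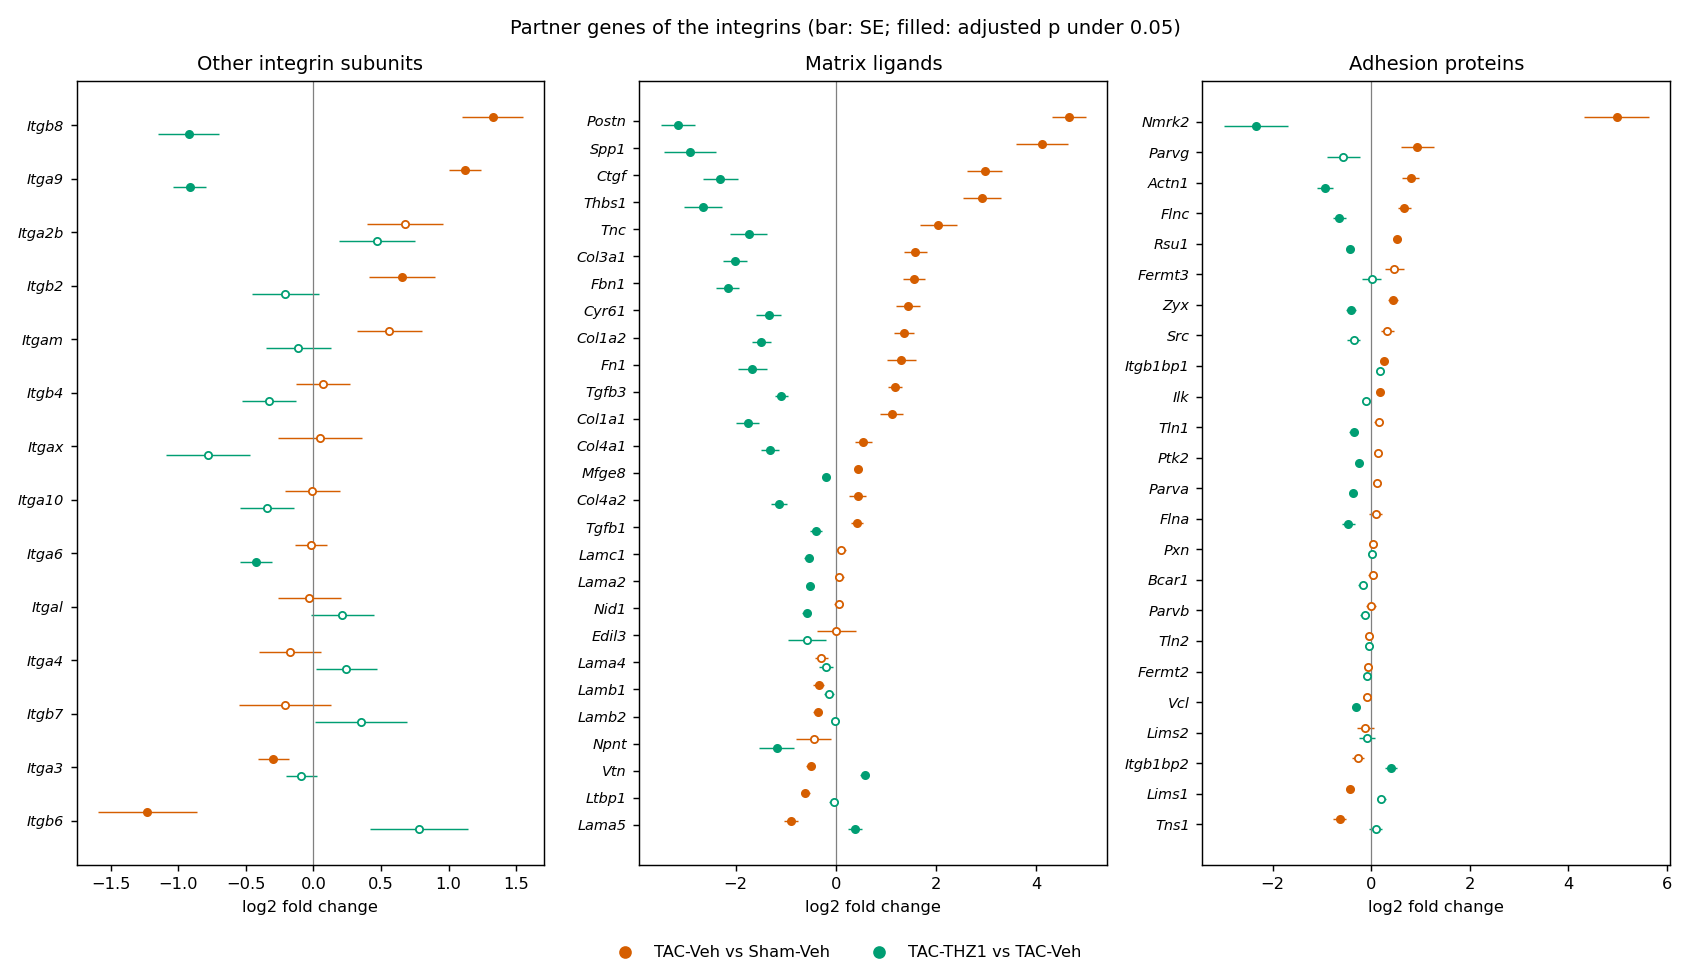
Log2 fold change (horizontal axis) of other integrin subunits, matrix ligands and adhesion proteins in TAC-Veh against Sham-Veh (orange) and TAC-THZ1 against TAC-Veh (green), which share the TAC-Veh libraries; bars are the SE and filled points have an adjusted p under 0.05 in limma. Among the ligands 16 are higher with TAC, and 20 are lower in TAC-THZ1 than in TAC-Veh.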

How the data were processed

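RNA was sequenced from ventricles of 16 mice with a stranded kit. The authors aligned the reads with TopHat2 2.1.1 to mm9, counted them per GENCODE gene with HTSeq in reverse-stranded mode and divided the counts by DESeq2 size factors, so the deposited signal is a normalized count per gene and library. Pooling, if any, was not given in the sources used here. The values were whole multiples of a step in each library (tolerance 0.01), from which whole reads were recovered for 100% of the values, with size factors of 0.749 to 1.40. All 22372 genes matched the GENCODE annotation on NCBIM37, and 4484 were at 0 throughout. Gene counts do not separate the splice forms of Itga7 and Itgb1. The spans of Itga7, Itga8, Itgav and Itgbl1 overlap genes on the opposite strand, which stranded counting keeps apart. Exon bases shared with those genes were not counted. Pelo, U6 and SNORA17 lie on the same strand within Itga1, Itga7 and Itgbl1 and share 0 exon bases with them. Between replicates the chi-square over its degrees of freedom was 2.98 to 98.0, above sampling noise, and nothing said whether animals were processed together.

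Differences were tested in R 4.3.3 with limma 3.58.1 (eBayes with trend) after adding a pseudocount of 1 and taking log2. A single model of all 16 libraries held 4 group means and no covariate, and kept genes that reached 10 normalized counts in 4 or more libraries. P-values were two-sided and adjusted by Benjamini and Hochberg over 13331 genes within each of 5 comparisons, and a fold change on this scale understates that of scarce genes. Shares were tested with exact permutation tests in SciPy 1.17.1. DESeq2 1.42.0 and edgeR 4.0.16 (quasi-likelihood) on the recovered reads, other pseudocounts, filters, scalings, samples in the fit and weights, the replicate number as a block and leaving out each library were the alternatives. The fits were tested on simulated data. Named genes were all members, and from each of the other lists the 3 with the largest called log2 fold change with TAC and with THZ1 in TAC. The members and lists were chosen with earlier results of these data known. The labels gave no batch. The methods of the study give another dosing schedule than the labels, and the labels were used. Promoters came from RefSeq. Figures were drawn with Matplotlib 3.10.9.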

Additional observations from a re-analysis of the deposited data

Results flagged for a closer look

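The interaction term of limma, which compares the effect of THZ1 between TAC and sham hearts, passed an adjusted p of 0.05 for 5 of the 10 genes. The log2 values were -1.87 for Itgbl1, -1.47 for Itga11, -0.80 for Itgb5, -0.67 for Itga5 and -0.54 for Itgb1, each lower in TAC. No library stood apart within a group by Dixon's test for any of the 10 genes in the 4 groups, 40 tests in all, of which chance flags about 1 in 20.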

How the results depend on the processing

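Of the 5 counts of called members, that for TAC-Veh against Sham-Veh was 7 and stayed at 6 to 8 except with the fold threshold of the study added, where it was 3. For TAC-THZ1 against TAC-Veh it was 8, and 5 when only the groups compared were fitted and 2 with the fold threshold. For TAC-THZ1 against Sham-THZ1 it was 4 and for the interaction it was 5. The study set no fold threshold for either of these. With a log2 change of at least 1 in size, chosen here, the counts were 1 and 2. The share of all genes past that threshold was not counted for them. Leaving out 1 library gave 2 to 4 calls for TAC-THZ1 against Sham-THZ1, where 2 (Itga7 and Itgbl1) were left without Sham-THZ1 replicate 1 or 3 or TAC-THZ1 replicate 1 or 3. With array weights Itga8 lost its call in TAC-THZ1 against TAC-Veh (adjusted p = 0.0920). The cause was not tested. Over all genes, fitting only the groups compared called 583 higher and 816 lower for TAC-THZ1 against TAC-Veh, beside 2019 and 1899 in the main fit. For Sham-THZ1 against Sham-Veh it called 287 higher and 178 lower, beside 3 and 6. Over single members, 1357 values kept their direction and side of the threshold, 25 lost a call, 5 gained one and 3 changed sign without ever being called, which were Itga7 in TAC-THZ1 against TAC-Veh without TAC-Veh replicate 2 or TAC-THZ1 replicate 1 (-0.12 to 0.037 over the libraries left out), and Itgbl1 in Sham-THZ1 against Sham-Veh without Sham-Veh replicate 1 (-0.18 to 0.018). Labels give a replicate number but no shared animal, and same-numbered libraries did not deviate together (r of -0.43 to 0.16 over 24 pairs, 2 above 0.1; 2 libraries correlated best with their own number). With the replicate block the counts were 7, 8, 0, 4 and 5, and no call changed. Shares kept direction and threshold under other lengths, and without a library they were values with no test. Members with under 100 reads in a library (Itga8, Itga11 and Itgb3) are the least precise.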
